A study of Mus musculus with 59 samples.

Results

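The response of Tbk1 KO microglia to lipopolysaccharide was taken from 10 of the 59 RNA sequencing libraries of the study: 5 KO LPS and 5 KO UT libraries, taken by their genotype and treatment labels. The cells were primary microglia, the resident macrophages of the brain, purified from mouse pups at P0/P1. KO cultures were Tbk1fl/fl Cx3CR1-Cre+, so that both floxed copies of Tbk1 can be recombined where the Cx3CR1 promoter drives Cre. KO LPS cultures received lipopolysaccharide, a cell wall component of Gram-negative bacteria, at 100 ng/mL for 24 h, and KO UT cultures received fresh medium for the same 24 h. All cultures had been plated for 16 h before that, in DMEM with FCS and ß-mercaptoethanol. The same pair of treatments in Tbk1fl/fl Cx3CR1-Cre- cultures (WT LPS, 5 libraries, and WT UT, 4 libraries) and in Tbk1fl/+ Cx3CR1-Cre+ cultures (HET LPS and HET UT, 5 libraries each) served to test where the KO response differed. Replicate 5 of WT UT was not analysed here. WT cultures lack Cre, so the loss of Tbk1 and the presence of Cre cannot be told apart against WT, whereas HET cultures carry the same Cre. The labels speak of 5 independent cultures per genotype, and the sources used here do not say whether a culture held 1 pup or several. The IL4 and pIC arms of the study are not described.

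Lipopolysaccharide is bound by CD14 and MD-2 and activates Toll-like receptor 4 (TLR4). At the cell surface TLR4 signals through TIRAP and MYD88 to the IRAK kinases, TRAF6 and TAK1, which release NF-kB and MAP kinases and turn on genes of inflammation. From endosomes it signals through TICAM2 (TRAM) and TICAM1 (TRIF) to TRAF3 and the kinases TBK1 and IKKε (gene Ikbke), which phosphorylate IRF3. IRF3 turns on interferon beta, whose secreted protein acts back on the cells through its receptor and raises interferon-stimulated genes. TBK1 also phosphorylates RIPK1 and autophagy receptors such as optineurin and p62.

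The promoters of 4 of the 12 genes with the largest increases in KO LPS over KO UT are shown, as examples of windows that hold a match to a motif of a factor named above or of AP-1, the factor downstream of MAP kinases. The windows of Il6 (NF-kB and AP-1) and Serpinb2 (AP-1) hold matches too and are not printed, and those of Marco, Lcn2, Acod1, Il1b and Fpr1 hold none of the motifs searched. Each line gives the 250 bases before the annotated start from RefSeq (GRCm38.p6), 5′ to 3′ on the gene's strand, and capitals mark the matches. The Cxcl3 window (chr5:90785851-90786100, plus strand) and the Cxcl2 window (chr5:90903649-90903898, plus strand) hold the NF-kB motif (GGGA, any base, TTTCC). The Il1a window (chr2:129309973-129310222, minus strand) holds the AP-1 motif TGANTCA. The Saa3 window (chr7:46715677-46715926, minus strand) holds the interferon response motif (GAAA, any 2 bases, GAAA) and, nearer the start, the sterol regulatory motif TCACNCCAC on the opposite strand.
Cxcl3: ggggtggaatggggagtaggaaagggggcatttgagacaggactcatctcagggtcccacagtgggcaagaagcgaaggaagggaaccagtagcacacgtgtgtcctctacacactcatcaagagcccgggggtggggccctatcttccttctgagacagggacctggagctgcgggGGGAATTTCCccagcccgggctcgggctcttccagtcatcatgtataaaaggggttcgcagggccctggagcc
Cxcl2: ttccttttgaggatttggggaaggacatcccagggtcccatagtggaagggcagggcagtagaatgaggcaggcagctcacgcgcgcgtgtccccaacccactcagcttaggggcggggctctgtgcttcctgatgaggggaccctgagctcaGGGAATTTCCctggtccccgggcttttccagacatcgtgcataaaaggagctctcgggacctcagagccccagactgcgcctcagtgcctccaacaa
Il1a: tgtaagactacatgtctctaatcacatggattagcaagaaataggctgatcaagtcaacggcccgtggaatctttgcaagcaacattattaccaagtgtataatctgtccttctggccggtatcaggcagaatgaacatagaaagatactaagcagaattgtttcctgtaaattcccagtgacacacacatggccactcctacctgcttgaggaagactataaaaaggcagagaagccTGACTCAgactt
Saa3: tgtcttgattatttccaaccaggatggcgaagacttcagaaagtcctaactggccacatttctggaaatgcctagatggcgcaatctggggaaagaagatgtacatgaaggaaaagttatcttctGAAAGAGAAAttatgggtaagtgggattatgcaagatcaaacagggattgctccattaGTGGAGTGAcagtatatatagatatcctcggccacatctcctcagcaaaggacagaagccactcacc

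Both strands of each 300-base window, 250 bases before and 50 after the start, were searched. Of the 379 windows of genes called higher by at least 2 on the log2 scale, 2.64% held the NF-kB motif, against 0.348% of the 287 windows of genes called lower by at least 2, 0.491% of the 13837 windows of all genes tested and 0.411% of all 32851 promoters. The interferon response motif stood in 14.8% of the windows of the genes called higher by at least 2, in 3.14% of those called lower, in 3.24% of those of all genes tested and in 3.44% of all promoters. The AP-1 motif stood in 16.6%, 8.36%, 5.24% and 7.81% of the same sets, and the sterol motif in 1.32%, 1.74%, 1.11% and 1.24%. Among the gene lists used here, the NF-kB motif was found in 3 of 16 chemokine windows and the interferon response motif in 28 of 55 windows of interferon-stimulated genes. A match is a run of letters and no evidence of binding. Of the 15908 genes tested, 10787 matched a window by symbol.

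The values are TPM, reads scaled by gene length and by library total, as the authors deposited them, and differences are given as the mean of log2(TPM + 1) in KO LPS minus that in KO UT ± SE from limma, with p-values adjusted over all 15908 genes tested. Per-library values are listed in the order of replicates 1 to 5. The TPM of each of the 10 libraries summed to between 999823 and 999927, and the depth is unknown because TPM keeps none. The 50 most abundant genes took 36.2% ± 1.27 of the summed TPM in KO LPS and 29.9% ± 1.90 in KO UT (SD, n = 5 each; two-sided exact permutation p = 0.00794, the smallest that 5 against 5 can give). Saa3 alone took between 3.63% and 9.93% of the summed TPM in KO LPS. The median of all genes tested was -0.44 in KO, and -0.03 after median-of-ratios scaling. LPS changed 11078 genes in KO (69.6% of those tested), of which 2085 (13.1%) were higher and 8993 (56.5%) lower, against 4669 (29.4%) higher and 4629 (29.1%) lower after median-of-ratios scaling. The same test called 75.8% of genes in WT and 74.0% in HET. Differences near 0 are to be read against the median of -0.44, and counts of a list against the 13.1% higher and 56.5% lower of all genes.

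Tbk1 itself (chr10:121546455-121586794 in mm10) had 12.1, 19.4, 17.7, 25.8 and 15.2 TPM in KO LPS, against 18.2, 27.8, 16.5, 20.7 and 16.5 TPM in KO UT (log2 difference -0.15 ± 0.14, adjusted p = 0.338). The groups overlapped, and the sign of the difference turned under both other scalings. It was 0.35 and called higher under median-of-ratios scaling (adjusted p = 0.0351). Under quantile normalization it was 0.27 and not called (adjusted p = 0.0769). In the cultures with intact or single-copy Tbk1 the transcript rose with LPS, by 0.92 in WT and 0.78 in HET, and the KO response was lower than both (difference of responses -1.07 ± 0.21, adjusted p = 0.000177 against WT and -0.93 ± 0.20, adjusted p = 0.000852 against HET). A value per gene sums reads over all exons and does not show whether the floxed exon was absent. Cx3cr1, the fractalkine receptor gene that names the Cre driver, had 47.3, 132, 53.8, 94.5 and 63.5 TPM in KO LPS, against 867, 827, 717, 825 and 728 TPM in KO UT (log2 difference -3.42 ± 0.21, adjusted p = 1.57e-17), with every KO LPS library below every KO UT library.

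The largest increases were in genes of acute inflammation and phagocyte defence. Of the 2085 genes called higher, 415 (2.61% of those tested) rose by at least 2 on the log2 scale, and 1526 genes (9.59%) had all 5 KO LPS libraries above all 5 KO UT libraries. Saa3, an acute phase serum amyloid A, had 99246, 70097, 80057, 36262 and 48954 TPM in KO LPS, against 58.8, 44.1, 20, 18.7 and 45.7 TPM in KO UT (log2 difference 10.81 ± 0.44, adjusted p = 3.59e-23). It was the most extreme difference, and even the lowest KO LPS library was far above every KO UT library. The 12 highest genes described here were chosen among those with no overlap between the groups.

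Marco, a scavenger receptor for bacteria, had 3896, 3535, 2555, 2740 and 3096 TPM in KO LPS, against 1.77, 2.54, 0.461, 0.139 and 1.07 TPM in KO UT (log2 difference 10.59 ± 0.33, adjusted p = 5.94e-27). Its KO LPS values were close together. Lcn2, a siderophore-binding lipocalin that withholds iron from bacteria, had 1469, 1885, 2177, 2672 and 3413 TPM in KO LPS, against 0.998, 0.345, 1.71, 0.541 and 0.561 TPM in KO UT (log2 difference 10.30 ± 0.33, adjusted p = 1.36e-26). Acod1, which makes the antibacterial metabolite itaconate, had 1346, 1167, 1025, 1224 and 1747 TPM in KO LPS, against 0.624, 0.703, 0.217, 0.604 and 2.51 TPM in KO UT (log2 difference 9.47 ± 0.32, adjusted p = 1.73e-25). In both, no KO LPS library was below 1025 TPM and no KO UT library exceeded 2.51 TPM.

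The neutrophil-attracting chemokines, whose promoters are printed above, rose with a wide spread. Cxcl3 had 764, 1410, 1647, 3835 and 4208 TPM in KO LPS, against 0.341, 0.348, 0.596, 0 and 0.866 TPM in KO UT (log2 difference 10.45 ± 0.42, adjusted p = 2.22e-23). Cxcl2 had 1257, 1299, 1525, 3484 and 4842 TPM in KO LPS, against 2.48, 3.02, 0.785, 0.978 and 5.22 TPM in KO UT (log2 difference 9.39 ± 0.39, adjusted p = 1.02e-22). In both genes KO LPS libraries 4 and 5 were the highest and library 1 the lowest, while the KO LPS and KO UT groups stayed far apart.

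Il1a, an alarm cytokine, had 969, 787, 1358, 3568 and 4543 TPM in KO LPS, against 2.22, 0.434, 1.03, 1.67 and 1.91 TPM in KO UT (log2 difference 9.54 ± 0.35, adjusted p = 2.16e-24). Il1b, the inflammasome-processed cytokine, had 6629, 5703, 7333, 11281 and 13397 TPM in KO LPS, against 35.8, 3.96, 25, 20.7 and 6.29 TPM in KO UT (log2 difference 9.13 ± 0.57, adjusted p = 4.86e-17). Il6 had 245, 312, 437, 988 and 1653 TPM in KO LPS, against 0, 0, 0.28, 0 and 0 TPM in KO UT (log2 difference 9.06 ± 0.35, adjusted p = 1.06e-23). For all 3 cytokines libraries 4 and 5 were again the highest of KO LPS. Il6 was listed at 0 in 4 of the 5 KO UT libraries, so the size of its difference depends on the added 1 TPM.

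Ccl5, a T cell chemokine that is also an interferon-stimulated gene, had 2895, 1059, 1073, 617 and 1539 TPM in KO LPS, against 0.907, 0, 4.28, 1.03 and 2.66 TPM in KO UT (log2 difference 9.05 ± 0.43, adjusted p = 5.16e-21); here library 1 was the highest of KO LPS and library 4 the lowest. Serpinb2, an inhibitor of plasminogen activators, had 583, 552, 1159, 518 and 869 TPM in KO LPS, against 0.289, 0.144, 0.767, 0.572 and 0.065 TPM in KO UT (log2 difference 9.03 ± 0.25, adjusted p = 2.47e-28). Fpr1, the formyl peptide receptor, had 726, 620, 727, 668 and 747 TPM in KO LPS, against 0.701, 2.03, 0.66, 0.495 and 1.9 TPM in KO UT (log2 difference 8.40 ± 0.22, adjusted p = 2.19e-29), and its 5 KO LPS values were among the most even of these 12 genes.

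The largest decreases were in genes of varied function, such as surface receptors, transporters and signalling regulators. Among them Gpr34, Slco2b1, Rasgrp3 and Fcrls belong to the list of resting microglia genes described below. Of the 8993 genes called lower, 288 (1.81% of those tested) fell by at least 2, and 6298 genes (39.6%) had all KO LPS libraries below all KO UT libraries. Gpr34, a lysophosphatidylserine receptor of microglia, had 0.389, 0.824, 0.913, 0.695 and 0.281 TPM in KO LPS, against 205, 101, 182, 163 and 154 TPM in KO UT (log2 difference -6.62 ± 0.17, adjusted p = 7.58e-30). Hpgd, which inactivates prostaglandins, had 8.45, 23, 13.8, 8.31 and 6.09 TPM in KO LPS, against 759, 689, 712, 702 and 908 TPM in KO UT (log2 difference -6.00 ± 0.22, adjusted p = 8.68e-25). Cxcr4, the receptor of CXCL12, had 5.13, 4.54, 2.48, 1.9 and 1.27 TPM in KO LPS, against 205, 198, 191, 230 and 153 TPM in KO UT (log2 difference -5.69 ± 0.22, adjusted p = 4.77e-24). No KO LPS value of these 3 genes came near a KO UT value.

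Slco2b1, an organic anion transporter, had 0, 0.396, 0.16, 0 and 0.025 TPM in KO LPS, against 66.9, 39.2, 51, 46.7 and 24.2 TPM in KO UT (log2 difference -5.32 ± 0.23, adjusted p = 2.03e-22). Rasgrp3, a Ras activator, had 1.75, 5.62, 3.13, 2.65 and 3.49 TPM in KO LPS, against 158, 166, 133, 133 and 218 TPM in KO UT (log2 difference -5.27 ± 0.23, adjusted p = 3.31e-22). Fcrls, an Fc receptor-like gene typical of rodent microglia, had 44.6, 45.8, 41.2, 18 and 18.3 TPM in KO LPS, against 656, 720, 672, 786 and 711 TPM in KO UT (log2 difference -4.47 ± 0.22, adjusted p = 1.1e-20), with libraries 4 and 5 below the other KO LPS libraries. The remaining 6 of the 12 lowest were Rgs2 (-4.48 ± 0.19), a brake on G protein signalling; Gas6 (-4.27 ± 0.14), a ligand of the TAM phagocytosis receptors; Gpr183 (-4.26 ± 0.13), an oxysterol receptor; Slc46a3 (-4.22 ± 0.18), a lysosomal transporter; Lsp1 (-4.17 ± 0.20), an actin-binding protein of leukocytes; and Cadm1 (-4.15 ± 0.11), an adhesion molecule. No overlap between the groups was a condition for the choice of all 12.

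**Figure D1:**
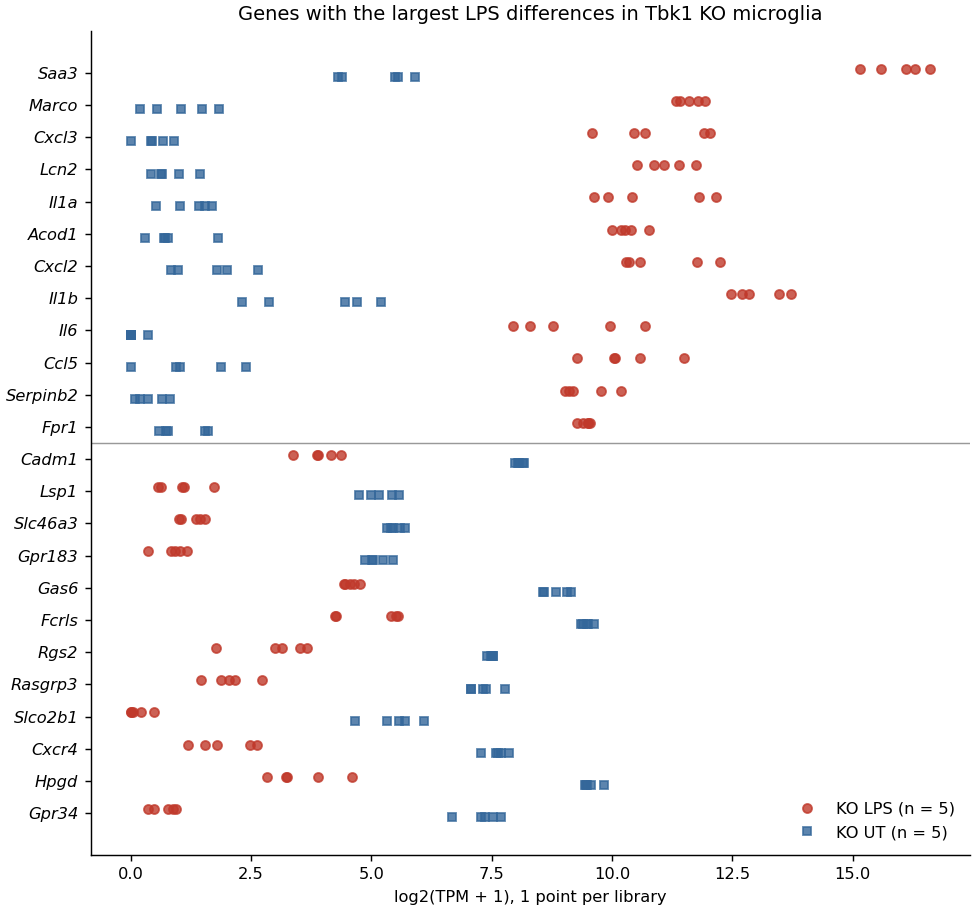
Level of the 12 genes with the highest and the 12 with the lowest called differences, as log2(TPM + 1) on the horizontal axis, with a point per library: red circles for KO LPS and blue squares for KO UT (5 each). The groups are apart in all 24 genes because only genes without overlap were chosen. The KO LPS points of Cxcl3, Il1a and Il6 spread more widely than those of Fpr1 or Marco.

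The receptor and its adaptors were next. In the list of TLR4 pathway genes 7 of 22 tested members were called higher and 13 lower (median -0.38), and after median-of-ratios scaling 9 higher and 7 lower (median 0.14). Tlr4 had 18.3, 28.8, 39.9, 69.9 and 57.1 TPM in KO LPS, against 35.9, 29.9, 31.9, 29.9 and 48 TPM in KO UT (log2 difference 0.15 ± 0.21, adjusted p = 0.514), so the groups overlapped and the difference did not pass. Cd14, the co-receptor that hands over lipopolysaccharide, had 1418, 1468, 1409, 1936 and 2407 TPM in KO LPS, against 512, 279, 355, 465 and 358 TPM in KO UT (log2 difference 2.13 ± 0.23, adjusted p = 1.78e-10). Ly96, which encodes MD-2, was higher by 0.79 ± 0.14 and Myd88 by 1.44 ± 0.11.

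Irak3, which encodes the inhibitory kinase IRAK-M, had 192, 185, 203, 186 and 183 TPM in KO LPS, against 9.45, 7.83, 6.82, 8.46 and 8.12 TPM in KO UT (log2 difference 4.39 ± 0.10, adjusted p = 8.57e-31). Its 5 KO LPS values lay within 183 to 203 TPM, far above KO UT. Ticam2 was called higher (0.56 ± 0.16) as were Irak2 (0.28 ± 0.11) and Traf3 (0.33 ± 0.10). The other TLR4-like receptor pair fell, Cd180 (-1.64 ± 0.22) and its partner Ly86 (-2.12 ± 0.14). Tirap, Irak1, Irak4, Traf6, Map3k7 (TAK1), its partners Tab1, Tab2 and Tab3, Tollip and the adaptor Sarm1 were called lower, with differences between -1.21 and -0.32; for Tirap, Irak1 and Irak4 the sign turned after median-of-ratios scaling. Ticam1 was at -0.13 ± 0.11 (adjusted p = 0.279), a sign that also turned. After median-of-ratios scaling Ticam1 was called higher (0.37, adjusted p = 0.0308).

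Peli1, a ubiquitin ligase of TLR signalling, moved against the direction of the other genotypes. It had 22.3, 18.4, 25, 17.8 and 16.4 TPM in KO LPS, against 52, 56.9, 63.2, 59.7 and 42.9 TPM in KO UT (log2 difference -1.42 ± 0.14, adjusted p = 3.74e-11), with every KO LPS library below every KO UT library. LPS raised it in WT, to 100 ± 5.98 TPM against 63.4 ± 8.83 TPM in WT UT, and in HET, to 80.2 ± 9.19 TPM against 55.4 ± 6.67 TPM in HET UT (SD, n = 5 and 4, then 5 each). The difference of responses was -2.08 ± 0.21 (adjusted p = 1.43e-09) against WT and -1.94 ± 0.20 (adjusted p = 4.37e-09) against HET, and its sign in KO held after median-of-ratios scaling (-0.90) and in quantile-normalized values (-1.10).

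Among the partners and substrates of TBK1, 6 of 14 tested members were called higher and 3 lower (median 0.14), and after median-of-ratios scaling 12 higher and 1 lower (median 0.66). Ikbke, the gene of the sister kinase IKKε, had 154, 166, 155, 161 and 136 TPM in KO LPS, against 24.7, 28.5, 14.6, 19.3 and 26.1 TPM in KO UT (log2 difference 2.75 ± 0.21, adjusted p = 1.21e-14), and the difference of its response from WT (-0.40 ± 0.30, adjusted p = 0.438) and from HET (-0.57 ± 0.29, adjusted p = 0.227) did not pass. Of the adaptors that bind TBK1, Tank rose by 1.42 ± 0.09 and Azi2 (NAP1) by 0.53 ± 0.09, while Tbkbp1 (SINTBAD) was at 0.07 ± 0.11 and did not pass. Sqstm1, which encodes p62, was higher by 0.53 ± 0.15, and Optn, which encodes optineurin, was lower (-1.03 ± 0.11).

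Irf3 had 51.4, 49.5, 43.2, 50.4 and 43.6 TPM in KO LPS, against 55.7, 59.6, 45.6, 54 and 54.1 TPM in KO UT, overlapping groups whose difference of -0.17 ± 0.10 did not pass (adjusted p = 0.117) and turned to 0.35 after median-of-ratios scaling. After that scaling Irf3 was called higher (adjusted p = 0.00374). Irf7, itself interferon-stimulated, had 563, 98.4, 275, 117 and 103 TPM in KO LPS, against 4.03, 2.36, 4.77, 6.55 and 3.5 TPM in KO UT (log2 difference 5.16 ± 0.30, adjusted p = 3.61e-18). Library 1 of KO LPS was the highest, library 3 came next and libraries 2, 4 and 5 lay close together. Irf5 (-0.25 ± 0.11) and Mavs (-0.26 ± 0.08) were called lower with signs that turned after median-of-ratios scaling, and Sting1 and Nfkbil1 did not pass. After that scaling Mavs (0.25, adjusted p = 0.0184) and Nfkbil1 (0.36, adjusted p = 0.0205) were called higher. Ifnb1, the gene of interferon beta, was below the filter on low values and was not tested.

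Genes of NF-kB signalling and of its negative feedback rose. In that list 18 of 24 tested members were called higher and 5 lower (median 1.37). Tnfaip2, a tumour necrosis factor-induced gene, had 190, 431, 367, 456 and 483 TPM in KO LPS, against 22.9, 18.9, 20, 22.9 and 34.3 TPM in KO UT (log2 difference 3.92 ± 0.21, adjusted p = 2.36e-19). Nfkbiz, the inducible nuclear cofactor that assists Il6 transcription, had 97.6, 88.9, 88.2, 72.8 and 95.8 TPM in KO LPS, against 9.23, 9.17, 6.32, 8.88 and 9.1 TPM in KO UT (log2 difference 3.24 ± 0.11, adjusted p = 6.73e-26). The A20-binding inhibitors Tnip3 (3.34 ± 0.27) and Tnip1 (2.79 ± 0.10), the RNase gene Zc3h12a (3.14 ± 0.15) and the subunit gene Nfkb2 (2.67 ± 0.13) rose without overlap. The 5 members called lower were Rela, Chuk, Cyld, Otulin and Zfp36. After median-of-ratios scaling Zfp36 was still called lower (-0.65), and the sign turned for Rela, Chuk, Cyld and Otulin, of which Chuk was then called higher (0.22).

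Of the cytokines and growth factors, 23 of 32 tested members were called higher and 4 lower (median 1.25). The median response was 2.82 in WT and 2.64 in HET. The KO response was above that of WT in 0 and below it in 20 of the 32 genes, beside 7.03% of all genes below WT. It was above that of HET in 0 and below it in 17, beside 6.15% of all genes below HET. Csf3, the granulocyte colony-stimulating factor, had 72.7, 26, 71.2, 66.4 and 163 TPM in KO LPS and was listed at 0 in all KO UT libraries (adjusted p = 4.51e-23). Tnf had 276, 168, 169, 318 and 495 TPM in KO LPS, against 7.49, 9.24, 4.94, 4.89 and 10.7 TPM in KO UT (log2 difference 5.01 ± 0.23, adjusted p = 1.72e-21). Il1rn, the interleukin-1 receptor antagonist, had 292, 208, 278, 381 and 367 TPM in KO LPS, against 8.9, 6.03, 4.67, 2.17 and 10.8 TPM in KO UT (log2 difference 5.46 ± 0.31, adjusted p = 3.27e-18). The groups of these genes were apart in every library. Those called lower were the growth factors Hbegf, Igf1 and Pdgfb and the matrix cytokine Spp1, which had 851, 784, 585, 1149 and 1329 TPM in KO LPS, against 8555, 9999, 6330, 10138 and 14103 TPM in KO UT (log2 difference -3.40 ± 0.31, adjusted p = 4.09e-12).

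Among chemokines 17 of 24 tested members were called higher and 3 lower (median 2.92). The KO response was above that of WT in 6 and below it in 10 of the 24 genes. Against HET it was above in 3 and below in 10, beside 7.03% of all genes below WT and 6.15% below HET. Cxcl1, a further neutrophil chemokine, had 74.5, 280, 144, 341 and 550 TPM in KO LPS, against 0, 0.164, 0.082, 0 and 0.42 TPM in KO UT (log2 difference 7.65 ± 0.41, adjusted p = 3.99e-19). Ccl22, a chemokine for regulatory T cells, had 2.65, 30.3, 9.91, 49.8 and 191 TPM in KO LPS, against 0.305, 0.346, 0.127, 0.172 and 0.245 TPM in KO UT (log2 difference 4.40 ± 0.61, adjusted p = 6.74e-08). Cxcl10, an interferon-stimulated chemokine, had 292, 13.4, 82, 19.2 and 9.58 TPM in KO LPS, against 0.781, 0.696, 0.631, 0.147 and 2.7 TPM in KO UT (log2 difference 4.35 ± 0.53, adjusted p = 3.45e-09). Cxcl10 was highest in KO LPS 1 and lowest in KO LPS 5, and Ccl22 was highest in KO LPS 5 and lowest in KO LPS 1. Those called lower were Ccl6, Cxcl14 and Cx3cl1, and those not called were Ccl8, Ccl24, Cxcl9 and Cxcl11.

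Acute phase and iron genes, oxidant enzymes and eicosanoid enzymes followed. In the acute phase and iron list 15 of 19 tested members were called higher and 1 lower (median 1.22), with C3 (5.81 ± 0.26), haptoglobin Hp (5.66 ± 0.33) and ceruloplasmin Cp (5.61 ± 0.27) behind Saa3 and Lcn2. The member called lower was Slc40a1, the iron exporter ferroportin, with 3.45, 5.96, 5.08, 10.5 and 8.22 TPM in KO LPS, against 61.6, 21.8, 70.6, 60.7 and 44.6 TPM in KO UT (log2 difference -2.76 ± 0.37, adjusted p = 4.36e-08). In the list of nitric oxide, itaconate and oxidant enzymes 14 of 16 tested members were called higher and 0 lower (median 2.48).

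Sod2, the mitochondrial superoxide dismutase, had 2374, 2253, 2168, 2324 and 2681 TPM in KO LPS, against 76.1, 83.6, 82.6, 87.4 and 80.4 TPM in KO UT (log2 difference 4.83 ± 0.14, adjusted p = 2.95e-28). Slc7a2, which imports arginine, had 127, 362, 276, 1025 and 1212 TPM in KO LPS, against 4.96, 6, 3.29, 7.14 and 5.93 TPM in KO UT (log2 difference 6.11 ± 0.33, adjusted p = 4.24e-19). Nos2, the inducible nitric oxide synthase, had 37.7, 7.03, 22.1, 5.71 and 18.3 TPM in KO LPS, against 0.033, 0, 0, 0 and 0 TPM in KO UT (log2 difference 3.96 ± 0.40, adjusted p = 5.07e-11). Nos2 thus had at most 37.7 TPM in KO LPS, with libraries 1 and 3 the highest, and Slc7a2 was highest in libraries 4 and 5. Ass1, which regenerates arginine, rose by 5.44 ± 0.31 and Arg1, which consumes it, by 3.77 ± 0.35.

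Of the prostaglandin and leukotriene genes 8 of 20 tested members were called higher and 6 lower (median -0.12). Ptgs2, cyclooxygenase-2, had 123, 106, 193, 230 and 430 TPM in KO LPS, against 2.81, 0.968, 3.82, 1.42 and 0.63 TPM in KO UT (log2 difference 6.15 ± 0.36, adjusted p = 5.02e-18). Ptges, the inducible prostaglandin E synthase, had 446, 351, 357, 409 and 442 TPM in KO LPS, against 0.871, 0.639, 0.992, 0.614 and 0.848 TPM in KO UT (log2 difference 7.81 ± 0.21, adjusted p = 8.23e-29). The degrading enzyme Hpgd fell as given above. Ptgs1, the constitutive cyclooxygenase (-1.33), and the terminal synthases Hpgds (-2.60) and Tbxas1 (-1.24) were called lower, and Ltc4s, the leukotriene C4 synthase, fell by 2.94 ± 0.23.

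Interferon-stimulated genes rose in KO. In that list 59 of 60 tested members were called higher and 0 lower (median 2.99), beside a background of 13.1% of all genes called higher, and the exception was Tgtp1, which was at 0.09 and had at most 0.517 TPM in any of the 10 libraries. Isg15, a ubiquitin-like modifier, had 762, 126, 369, 123 and 127 TPM in KO LPS, against 3.47, 1.99, 5.73, 2.56 and 2.4 TPM in KO UT (log2 difference 5.79 ± 0.34, adjusted p = 8.56e-18). Zbp1, a sensor of Z-form nucleic acids that can start necroptosis, had 418, 155, 311, 182 and 192 TPM in KO LPS, against 2.4, 0.786, 2.78, 1.78 and 2.23 TPM in KO UT (log2 difference 6.34 ± 0.24, adjusted p = 2.62e-24). Gbp2, a guanylate-binding protein, had 221, 102, 140, 149 and 162 TPM in KO LPS, against 1.7, 1.06, 1.03, 0.491 and 2.4 TPM in KO UT (log2 difference 6.07 ± 0.28, adjusted p = 3.77e-21). In all 3 genes the groups were apart, and library 1 was the highest of KO LPS.

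Ifi205 (5.88 ± 0.35), Ifit1 (5.47 ± 0.27) and Rtp4 (5.40 ± 0.29) rose in the same way. The spread between KO LPS libraries was wide here: the median SD over the 60 genes was 0.672 in KO LPS and 0.213 in KO UT on the log2(TPM + 1) scale, beside 0.254 and 0.210 over all genes, and the chemokine list had a median SD of 0.885 in KO LPS. The added 1 TPM narrows the spread of members with few TPM in KO UT, such as Zbp1 and Gbp2. The SDs of KO LPS and KO UT are therefore not on an equal footing. Of the 60 genes, 50 were highest in KO LPS 1 and the other 10 in KO LPS 3. Without KO LPS 1 the list had 57 members called higher and a median of 2.63.

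The rise of interferon-stimulated genes was smaller in KO than in the other genotypes. Across all genes, the KO response was above the WT response in 1489 (9.36%) and below it in 1118 (7.03%), and above the HET response in 1223 (7.69%) and below it in 978 (6.15%). With the replicate block, 2025 genes lay above HET. Of the 60 interferon-stimulated genes, 0 were above and 49 below against WT, and 0 above and 47 below against HET. The median response of the list was 2.99 in KO, 4.97 in WT and 4.82 in HET. Zbp1 and Rtp4 were among those whose difference did not pass (0.09 ± 0.34, adjusted p = 0.911 and 0.41 ± 0.42, adjusted p = 0.605 against WT). The comparisons with WT and HET share the 10 KO libraries.

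Genes of MHC class I presentation moved with them: 21 of 21 tested members were called higher and 0 lower (median 1.68), and the response was below WT in 19 and below HET in 14. H2-T22, a non-classical class I gene, had 295, 110, 191, 124 and 154 TPM in KO LPS, against 32.8, 35.7, 31.2, 31.6 and 30.6 TPM in KO UT (log2 difference 2.31 ± 0.14, adjusted p = 1.41e-17). Psme2, a subunit of the proteasome activator, had 594, 429, 513, 411 and 475 TPM in KO LPS, against 91.9, 102, 83, 75.6 and 86.5 TPM in KO UT (log2 difference 2.45 ± 0.09, adjusted p = 3.68e-25), and the difference of its response from that of WT did not pass (-0.00 ± 0.12, adjusted p = 0.989). Of the 21 genes, 20 were highest in KO LPS 1. H2-Q6, H2-Q7, H2-T22 and H2-T24 belong to families of near-identical copies, between which the counting may have split reads.

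Of the MHC class II genes 3 of 12 tested members were called higher and 4 lower (median 0.15), and after median-of-ratios scaling 5 higher and 3 lower (median 0.47). H2-Ab1, a chain of the class II molecule, had 18.7, 85.7, 31, 48.7 and 92.9 TPM in KO LPS, against 1.95, 3.01, 1.58, 2.25 and 2.06 TPM in KO UT (log2 difference 3.94 ± 0.42, adjusted p = 1.43e-10), and its chaperone Cd74 rose by 2.52 ± 0.28. Ctss, the protease that trims the chaperone, fell by 1.06 ± 0.11. In H2-Ab1 library 1 was the lowest of KO LPS, the opposite of its place among class I genes.

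**Figure D2:**
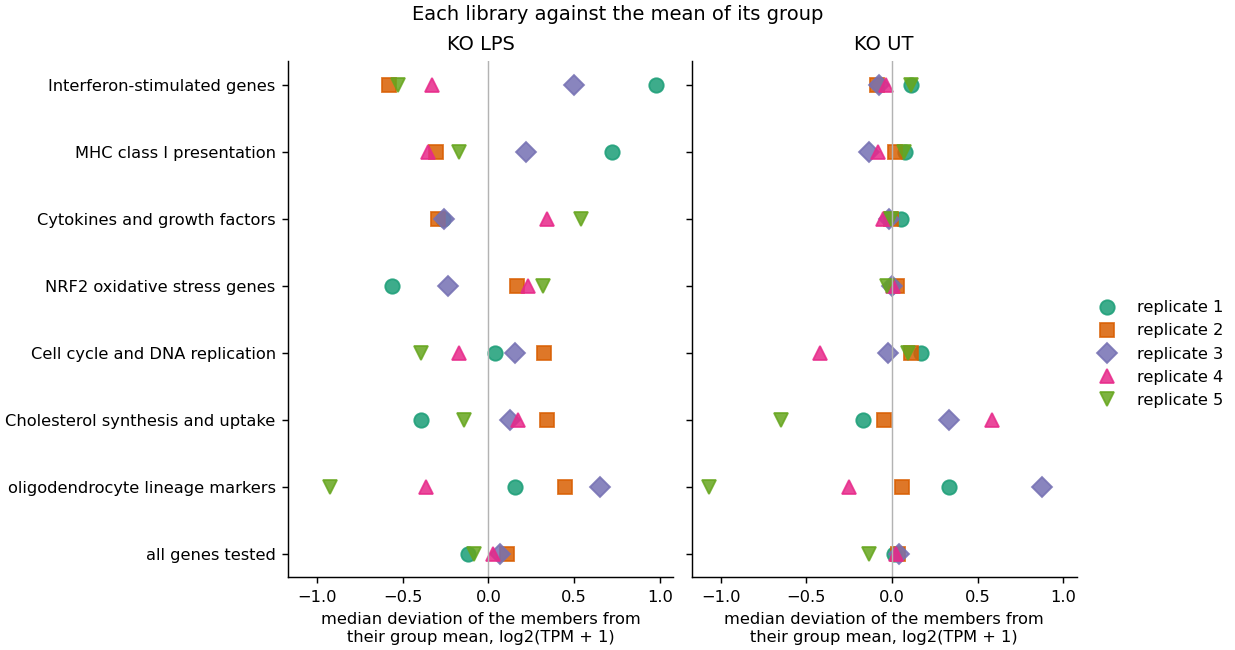
Median deviation of the members of each list from their group's mean, in log2(TPM + 1), by replicate 1 to 5, for KO LPS in the left panel and KO UT in the right. Interferon-stimulated and MHC class I genes lie highest in KO LPS 1 (0.976 and 0.719) and next in KO LPS 3. Cytokines and NRF2 genes lie highest in KO LPS 5 (0.543 and 0.318). The interferon-stimulated genes of KO UT stay between -0.089 and 0.110, where the added 1 TPM narrows the spread of low genes.

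The 5 KO LPS cultures thus fell into different orders for different gene groups. The interferon-stimulated genes deviated from their mean by 0.976, -0.583, 0.5, -0.330 and -0.531 in KO LPS 1 to 5. The cytokines deviated by -0.263, -0.292, -0.260, 0.344 and 0.543, and 20 of their 32 genes were highest in KO LPS 5. Over all genes tested, KO LPS 2 held the most highest values (5156 of 15908) and KO LPS 5 the fewest (1892). Oligodendrocyte lineage markers followed a further order, 0.152, 0.447, 0.650, -0.365 and -0.926 in KO LPS and 0.332, 0.061, 0.876, -0.251 and -1.067 in KO UT, and their part in these orders was not tested.

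Receptors and surface molecules changed in both directions. Of the costimulatory and checkpoint molecules 9 of 18 tested members were called higher and 7 lower (median 0.48). Cd274, which encodes the checkpoint ligand PD-L1, had 115, 104, 136, 179 and 177 TPM in KO LPS, against 7.1, 7.75, 7.35, 10.3 and 8.94 TPM in KO UT (log2 difference 3.93 ± 0.16, adjusted p = 8.97e-23). Cd40, a costimulatory receptor, had 33.5, 23.1, 23.2, 26 and 43 TPM in KO LPS, against 1.17, 2.35, 1.4, 0.575 and 3.19 TPM in KO UT (log2 difference 3.53 ± 0.31, adjusted p = 6.16e-13). Cd83, a maturation marker, had 8.01, 10.8, 9.15, 23.5 and 34.6 TPM in KO LPS, against 210, 131, 172, 153 and 183 TPM in KO UT (log2 difference -3.43 ± 0.21, adjusted p = 3.18e-17), and Havcr2, which encodes the checkpoint receptor TIM-3, fell by 3.23 ± 0.31.

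Of the scavenger and lectin receptors 14 of 28 tested members were called higher and 12 lower (median 0.49). Clec4e, the mincle receptor for mycobacterial glycolipid, had 711, 802, 677, 845 and 920 TPM in KO LPS, against 5.34, 3.98, 3.49, 4.05 and 10.8 TPM in KO UT (log2 difference 7.01 ± 0.34, adjusted p = 1.29e-20). Clec4n, which encodes dectin-2, had 537, 1035, 1158, 1801 and 1529 TPM in KO LPS, against 31, 13.1, 31.5, 31.4 and 16.5 TPM in KO UT (log2 difference 5.54 ± 0.38, adjusted p = 7.7e-16). Both rose in every library, and Siglece (6.63 ± 0.18), Clec4a1 (5.42 ± 0.24) and the oxidized lipoprotein receptor Olr1 (4.00 ± 0.28) rose as well. Of the Fc and TREM receptors 11 of 21 tested members were called higher and 5 lower (median 0.61); the paired receptors Pilrb1 (6.82 ± 0.19) and Pilra (6.17 ± 0.23), Treml4 (4.07 ± 0.23) and Trem1 (4.05 ± 0.18) rose, and Cd300a fell by 4.06 ± 0.16.

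Chemoattractant and purine receptors had 13 of 31 tested members called higher and 15 lower, and after median-of-ratios scaling 15 higher and 14 lower (median 0.15). Fpr2 had 497, 425, 466, 489 and 370 TPM in KO LPS, against 0.635, 0.837, 0.655, 0.358 and 1.31 TPM in KO UT (log2 difference 8.02 ± 0.26, adjusted p = 4.09e-26), and the adenosine receptors Adora2b (5.38 ± 0.26) and Adora2a (4.99 ± 0.12) rose. Adora2a was listed at 0 in 4 of 5 KO UT libraries. Among cytokine receptors 17 of 37 tested members were called higher and 12 lower (median 0.34); Il2rg, the common gamma chain, rose by 4.24 ± 0.17, the death receptor Fas by 4.00 ± 0.19 and Tnfrsf1b by 2.32 ± 0.11, and Tgfbr1, the receptor through which TGF-beta maintains microglial identity, had 13.5, 26.4, 23.2, 26 and 20.5 TPM in KO LPS, against 152, 180, 160, 187 and 167 TPM in KO UT (log2 difference -2.92 ± 0.10, adjusted p = 2.22e-25).

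Of the complement genes 5 of 16 tested members were called higher and 6 lower (median 0.06), and after median-of-ratios scaling 8 higher and 5 lower (median 0.34). Cfb, factor B of the alternative pathway, had 410, 342, 312, 341 and 284 TPM in KO LPS, against 0.284, 0.392, 0.153, 0.878 and 0 TPM in KO UT (log2 difference 8.00 ± 0.21, adjusted p = 2.04e-29), and properdin Cfp rose by 4.17 ± 0.17. C1qc, of the classical pathway, had 1206, 542, 768, 202 and 229 TPM in KO LPS, against 2712, 2713, 2277, 2368 and 2704 TPM in KO UT (log2 difference -2.43 ± 0.25, adjusted p = 4.12e-11). Its KO LPS values varied widely, with libraries 4 and 5 the lowest, and none reached a KO UT value. Integrins and adhesion genes had 8 of 23 called higher and 10 lower, and after median-of-ratios scaling 10 higher and 9 lower (median 0.24). Itgal rose by 2.91 ± 0.19 and Icam1 by 2.63 ± 0.13, and Itga6 (-3.83 ± 0.09) and Itgb5 (-2.76 ± 0.11) fell.

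Matrix proteases and matrix genes moved in both directions: 16 of 28 tested members were called higher and 7 lower (median 0.60). Mmp9, a gelatinase, had 569, 363, 669, 639 and 506 TPM in KO LPS, against 1.54, 1.6, 0.315, 0.409 and 1.68 TPM in KO UT (log2 difference 8.06 ± 0.41, adjusted p = 5.32e-20). Mmp12, the macrophage elastase, had 1182, 2196, 2486, 7894 and 8867 TPM in KO LPS, against 175, 262, 106, 61.8 and 402 TPM in KO UT (log2 difference 4.36 ± 0.57, adjusted p = 1.79e-08). Mmp13, a collagenase, had 662, 123, 550, 267 and 468 TPM in KO LPS, against 3.53, 3.44, 2.37, 1.47 and 5.58 TPM in KO UT (log2 difference 6.45 ± 0.31, adjusted p = 8.14e-21). The orders of the KO LPS libraries differed, with libraries 4 and 5 highest for Mmp12 and libraries 1 and 3 for Mmp13. The membrane-bound Mmp14 rose by 4.40 ± 0.30 and the neutrophil collagenase Mmp8 by 6.63 ± 0.31. Those called lower were the proteases Plau (-3.59 ± 0.24), Plat (-1.12 ± 0.30), Adamts1 (-0.81 ± 0.15) and Adam8 (-0.50 ± 0.15), and Timp2, Timp3 and Vcan.

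Genes of resting microglia fell: in that list 1 of 36 tested members were called higher and 34 lower (median -1.86), and after median-of-ratios scaling 3 higher and 30 lower (median -1.35). Beside Gpr34, Slco2b1, Rasgrp3 and Fcrls, the ATP-degrading ectoenzyme Entpd1 (-4.00 ± 0.17) and the secreted RNase gene Rnase4 (-3.98 ± 0.16) fell. The member called higher was Lpcat2, a phospholipid-remodelling enzyme, at 1.28. Tmem119, a marker of microglial identity, had 11.5, 19.6, 14.8, 15.5 and 10.3 TPM in KO LPS, against 13.2, 16.9, 11.7, 17.1 and 7.82 TPM in KO UT (log2 difference 0.11 ± 0.19, adjusted p = 0.606) with overlapping groups. Tmem119 was called higher in KO after median-of-ratios scaling (0.61, adjusted p = 0.00179) and after quantile normalization (0.58, adjusted p = 0.00308). Fewer cells of a type and less RNA per cell cannot be told apart in such bulk samples.

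Summed levels of cell type markers moved as well. The 17 tested markers of microglia and macrophages, 3 called higher and 11 lower, summed to 8390 to 11743 TPM in KO LPS and 17461 to 21245 TPM in KO UT, and the border macrophage markers (1 higher, 5 lower of 7) to 939 to 1492 and 353 to 518 TPM, the higher member being Pf4. Clec10a, a border macrophage marker, was listed at 0 in all 5 KO LPS libraries. Monocyte markers (1 higher, 4 lower of 6) summed to 48.2 to 115 TPM in KO LPS and 104 to 170 TPM in KO UT, with Ly6c2 the higher one and Chil3 listed at 0 in all 10 libraries. Neutrophil markers (2 higher of 3) summed to 157 to 193 and 85 to 114 TPM, and no lymphocyte marker passed the filter.

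Markers of other brain cells were also measured, and their counts stand beside the 56.5% of all genes called lower. Oligodendrocyte lineage markers (0 higher, 11 lower of 14) summed to 221 to 819 TPM in KO LPS and 676 to 2468 TPM in KO UT, neuronal markers (0 higher, 7 lower of 11) to 42.1 to 103 and 130 to 281 TPM, and astrocyte markers (1 higher, 7 lower of 11) to 79 to 155 and 129 to 369 TPM. The shares called lower were 78.6% of the oligodendrocyte markers and 63.6% of each of the neuronal and astrocyte markers. Endothelial, pericyte and fibroblast markers (2 higher, 3 lower of 10) summed to 12.1 to 24.3 TPM in KO LPS and 39.1 to 81.5 TPM in KO UT. The part of such cells in the results was not tested. Csf1r, a defining receptor of microglia and macrophages, had 693 to 1057 TPM in KO LPS and 1085 to 1250 TPM in KO UT, with a difference of -0.48 that turned to 0.05 after median-of-ratios scaling.

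Of the genes of disease-associated microglia 9 of 36 tested members were called higher and 22 lower (median -1.01), and after median-of-ratios scaling 10 higher and 17 lower (median -0.51). The 61.1% called lower is near the 56.5% of all genes. Gpnmb, a transmembrane glycoprotein of lipid-laden phagocytes, had 251, 309, 182, 126 and 263 TPM in KO LPS, against 1801, 2253, 1644, 2360 and 3530 TPM in KO UT (log2 difference -3.36 ± 0.35, adjusted p = 1.19e-10). Igf1, a growth factor that microglia supply to neurons, had 78.2, 105, 57.6, 137 and 107 TPM in KO LPS, against 793, 698, 648, 731 and 1014 TPM in KO UT (log2 difference -3.03 ± 0.26, adjusted p = 7.32e-13). Neither gene had a KO LPS library within the KO UT range. Dkk2 (-4.07 ± 0.17) and Syngr1 (-3.65 ± 0.12) also fell.

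Transcription factors of myeloid cells had 11 of 36 tested members called higher and 18 (50.0%) lower, beside 56.5% of all genes lower, and after median-of-ratios scaling 15 higher and 14 lower (median 0.07). Cebpa, a lineage factor, had 21.6, 33.9, 25.4, 27 and 27.6 TPM in KO LPS, against 295, 294, 276, 367 and 290 TPM in KO UT (log2 difference -3.45 ± 0.11, adjusted p = 1.6e-26). Mef2c, which keeps microglia in a resting state, had 16.8, 23, 20.7, 21.8 and 12 TPM in KO LPS, against 184, 137, 152, 157 and 168 TPM in KO UT (log2 difference -3.04 ± 0.11, adjusted p = 2.48e-24), and Pparg fell by 2.79 ± 0.22. Batf rose by 3.65 ± 0.16 and Tfec by 3.06 ± 0.26.

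Feedback inhibitors of cytokine signalling moved in both directions. Of the STAT and SOCS genes 12 of 23 tested members were called higher and 5 lower (median 0.24). Socs3, which blocks interleukin-6 receptor signalling, had 395, 255, 354, 302 and 407 TPM in KO LPS, against 7.09, 6.27, 7.95, 8.13 and 6.41 TPM in KO UT (log2 difference 5.38 ± 0.16, adjusted p = 1.23e-27). Socs1 rose by 4.98 ± 0.20, Pim1 by 4.11 ± 0.20, Jak2 by 2.27 ± 0.13 and Cish by 1.59 ± 0.35. The 5 members called lower were Socs6 (-2.20 ± 0.14), Pias1 (-0.92 ± 0.09), Socs7 (-0.81 ± 0.12), Socs4 (-0.67 ± 0.10) and Socs5 (-0.65 ± 0.11).

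Immediate early genes and dual-specificity phosphatases were mixed: 10 of 32 tested members were called higher and 13 lower (median 0.08), and after median-of-ratios scaling 16 higher and 5 lower (median 0.57). Ier3, an early response gene, rose by 4.80 ± 0.23 and Gadd45b by 2.51 ± 0.22, and Egr1 fell by 1.77 ± 0.20. The KO response was above that of WT in 1 and below it in 16 of the 32 genes. Dusp2, a nuclear phosphatase of MAP kinases, rose by 2.59 ± 0.30 in KO and differed from WT by -2.71 ± 0.43 (adjusted p = 1.18e-05).

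Of the genes around RIPK1, necroptosis and the inflammasome 18 of 30 tested members were called higher and 7 lower (median 0.57). Mlkl, which carries out necroptosis, had 36.1, 13.4, 23.6, 20.1 and 22.1 TPM in KO LPS, against 1.08, 0.607, 0.142, 0.385 and 0.669 TPM in KO UT (log2 difference 3.90 ± 0.20, adjusted p = 1.07e-19). Nlrp3, the inflammasome sensor, had 100, 116, 116, 160 and 198 TPM in KO LPS, against 27.2, 20.6, 14.4, 21 and 19.6 TPM in KO UT (log2 difference 2.67 ± 0.16, adjusted p = 5.09e-18). Birc3, a ubiquitin ligase that holds RIPK1 in check, had 138, 155, 162, 136 and 142 TPM in KO LPS, against 18.9, 18.8, 13.5, 17.8 and 14.6 TPM in KO UT (log2 difference 3.07 ± 0.14, adjusted p = 1.96e-21). All 3 genes rose in every library. Bcl2l11, the pro-apoptotic BIM, fell by 2.66 ± 0.13.

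**Figure D3:**
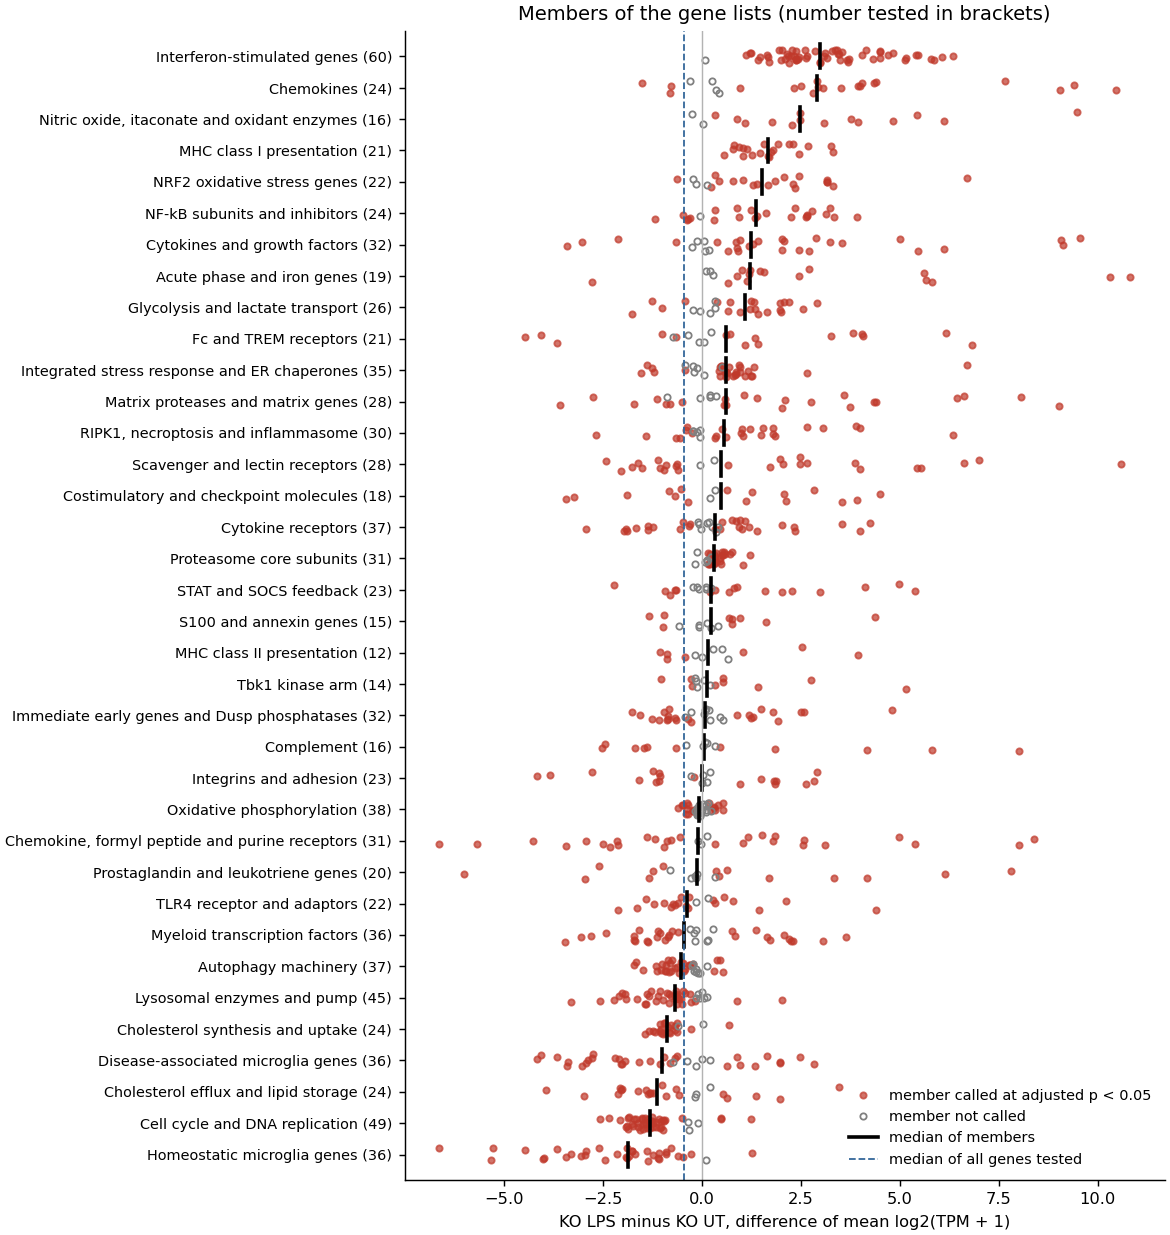
Differences of KO LPS minus KO UT in log2(TPM + 1) for the tested members of the 36 gene lists, ordered by the list's median (black bar); red points were called and grey open points were not. The dashed blue line marks the median of all genes tested, -0.44: interferon-stimulated genes and chemokines stand farthest to the right of it, and homeostatic microglia and cell cycle genes farthest to the left.

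Metabolic genes moved by pathway. Of the glycolysis and lactate transport genes 17 of 26 tested members were called higher and 4 lower (median 1.09). Slc2a1, the glucose transporter GLUT1, had 138, 127, 143, 171 and 200 TPM in KO LPS, against 25.3, 27, 22.5, 25 and 27.5 TPM in KO UT (log2 difference 2.55 ± 0.14, adjusted p = 8.08e-19). Slc16a3, a lactate exporter, had 196, 174, 212, 128 and 210 TPM in KO LPS, against 22.3, 31.3, 17.2, 20.4 and 27.5 TPM in KO UT (log2 difference 2.91 ± 0.17, adjusted p = 6.54e-18). The groups were apart in both, and Pfkfb3, Pfkl and Pgk1 rose by 2.09, 2.00 and 1.99.

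Of the oxidative phosphorylation genes 8 of 38 tested members were called higher and 12 lower (median -0.08), beside the median of -0.44 over all genes. After median-of-ratios scaling the same list had 30 higher and 0 lower (median 0.45), so its direction depends on the scaling. The KO response was above that of WT in 24 and below it in 0 of the 38 genes, and above that of HET in 23 and below it in 0. In WT, 1 of the 38 genes was called higher and 32 lower, beside 13.9% and 61.9% of all genes. Cox5a, a subunit of cytochrome oxidase, had 309, 298, 273, 241 and 260 TPM in KO LPS, against 186, 201, 203, 201 and 157 TPM in KO UT (log2 difference 0.54 ± 0.09, adjusted p = 3.02e-06).

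Genes of cholesterol synthesis fell less than in the other genotypes. In that list 1 of 24 tested members were called higher and 21 lower (median -0.88), and after median-of-ratios scaling 3 higher and 8 lower (median -0.38). Hmgcs1, an early enzyme of the pathway, had 68.3, 160, 132, 119 and 80.1 TPM in KO LPS, against 238, 273, 398, 438 and 185 TPM in KO UT (log2 difference -1.44 ± 0.27, adjusted p = 1.61e-05). Dhcr7, which makes cholesterol in the last step, had 20.1, 26.7, 26.8, 17.1 and 15.2 TPM in KO LPS, against 53.1, 55.3, 56.4, 75.6 and 36.1 TPM in KO UT (log2 difference -1.34 ± 0.19, adjusted p = 6.43e-08). KO UT varied as much as KO LPS here, with library 4 high and library 5 low in both genes, and the groups stayed apart. By library, the list deviated from its group mean by -0.392, 0.343, 0.126, 0.172 and -0.142 in KO LPS 1 to 5, and by -0.168, -0.044, 0.333, 0.583 and -0.649 in KO UT 1 to 5. The astrocyte markers, whose summed levels are given above, deviated by -0.176, 0.317, 0.208, -0.042 and -0.241 in KO LPS and by -0.198, 0.17, 0.354, 0.228 and -0.477 in KO UT, and their part in these results was not tested.

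The median of the list was -0.88 in KO, -2.20 in WT and -1.84 in HET. The KO response was above that of WT in 19 of 24 genes and below it in 0, and above that of HET in 12 and below it in 0. Sqle differed from WT by 1.39 ± 0.41 (adjusted p = 0.0142), and Cyp51 by 1.45 ± 0.37 (adjusted p = 0.00386). Mvd and Fdps did not pass.

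Of the genes of cholesterol efflux and lipid storage 5 of 24 tested members were called higher and 16 lower (median -1.12). Plin2, which coats lipid droplets, had 165, 143, 152, 302 and 237 TPM in KO LPS, against 929, 698, 867, 723 and 978 TPM in KO UT (log2 difference -2.11 ± 0.14, adjusted p = 2.53e-16). Acsl1, which activates fatty acids, had 190, 299, 214, 262 and 273 TPM in KO LPS, against 23.2, 19.7, 21.3, 20.5 and 21 TPM in KO UT (log2 difference 3.47 ± 0.14, adjusted p = 1.84e-23). These genes of lipid storage thus moved in opposite directions with no overlap. The lipid carriers Fabp4 (-3.93 ± 0.52), Apoc1 (-2.98 ± 0.25) and Pltp (-2.07 ± 0.27) fell.

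Genes of the NRF2 oxidative stress response rose: 18 of 22 tested members were called higher and 1 lower (median 1.53). Slc7a11, the cystine importer, had 67, 278, 187, 469 and 410 TPM in KO LPS, against 1.04, 1.32, 1.05, 1.81 and 1.13 TPM in KO UT (log2 difference 6.69 ± 0.29, adjusted p = 3.88e-22). Prdx1, a peroxidase, had 3384, 6772, 4592, 11627 and 11807 TPM in KO LPS, against 747, 748, 728, 713 and 888 TPM in KO UT (log2 difference 3.15 ± 0.31, adjusted p = 1.57e-11). Hmox1, which degrades haem, had 1353, 2301, 1448, 2179 and 3009 TPM in KO LPS, against 316, 397, 273, 377 and 462 TPM in KO UT (log2 difference 2.45 ± 0.35, adjusted p = 1.53e-07). KO LPS 1 was the lowest of its group for all 3 genes. Gpx1 was called lower at -0.63, and Nfe2l2, Gclc and Me1 did not pass.

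For part of this list the rise in KO went beyond the other genotypes. The KO response was above that of WT in 10 of 22 genes and below it in 0, with the same counts against HET. Nqo1, a quinone reductase, had 8.78, 35, 21.4, 21.2 and 31.8 TPM in KO LPS, against 1.57, 1.68, 1.85, 1.6 and 1.01 TPM in KO UT (log2 difference 3.15 ± 0.33, adjusted p = 1.04e-10), against a response of 0.62 in WT and 1.05 in HET (differences 2.53 ± 0.48, adjusted p = 0.00016 and 2.10 ± 0.47, adjusted p = 0.00125). Gsta3, a glutathione transferase, had 4.38, 20.2, 3.99, 20.7 and 18.9 TPM in KO LPS, against 0.429, 0.27, 0.229, 0 and 0.141 TPM in KO UT, and its response exceeded that of WT by 3.08 ± 0.37 (adjusted p = 7.71e-08). In WT LPS Gsta3 lay at 0.078 to 0.452 TPM, below all KO LPS libraries.

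Of the genes of the integrated stress response and endoplasmic reticulum chaperones 24 of 35 tested members were called higher and 5 lower (median 0.60). Mthfd2, a mitochondrial folate enzyme, rose by 2.66 ± 0.14, and the chaperones Pdia4 and Manf rose by 1.31 ± 0.10 and 1.28 ± 0.09. Psat1, of serine synthesis, fell by 1.54 ± 0.11. Proteasome subunits had 25 of 31 called higher and 0 lower, by small amounts (median 0.32); Psmb5 had 218, 247, 219, 231 and 258 TPM in KO LPS, against 111, 100, 102, 112 and 79.2 TPM in KO UT (log2 difference 1.22 ± 0.13, adjusted p = 1.31e-10).

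Cell cycle genes fell: 3 of 49 tested members were called higher and 43 lower (median -1.32), and after median-of-ratios scaling 4 higher and 40 lower (median -0.86). Ccnd1, which encodes cyclin D1, had 17.4, 18.3, 19.1, 7.1 and 6.94 TPM in KO LPS, against 94.1, 98, 60, 49.5 and 116 TPM in KO UT (log2 difference -2.57 ± 0.29, adjusted p = 8.53e-10). Cenpa, a centromere histone, had 5.41, 9.21, 5.03, 3.57 and 3.41 TPM in KO LPS, against 38.1, 30.3, 27.7, 27.7 and 25.7 TPM in KO UT (log2 difference -2.34 ± 0.23, adjusted p = 3.02e-11). KO LPS 4 and 5 were the lowest of their group in both genes. The members called higher were Cdkn1a, which encodes the cell cycle inhibitor p21, at 0.48, Tyms at 1.24 and E2f1 at 0.50, and Mki67, Ccne1 and Ccnd3 did not pass.

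Lysosomal genes fell on the TPM scale: 2 of 45 tested members were called higher and 37 lower (median -0.67). After median-of-ratios scaling the list had 9 higher and 19 lower (median -0.14), and after quantile normalization 4 higher and 36 lower (median -0.66). Ctsd, the lysosomal aspartic protease cathepsin D, had 2952, 3471, 2722, 3833 and 4502 TPM in KO LPS, against 12440, 14864, 11308, 17775 and 17738 TPM in KO UT (log2 difference -2.08 ± 0.18, adjusted p = 8.7e-13). It fell under each scaling. Ctsc, which activates granule proteases, had 1733, 1144, 1656, 1443 and 1389 TPM in KO LPS, against 450, 277, 352, 357 and 374 TPM in KO UT (log2 difference 2.02 ± 0.12, adjusted p = 1.4e-17), in the opposite direction.

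Autophagy genes depended on the scaling too: 4 of 37 tested members were called higher and 25 lower (median -0.51). After median-of-ratios scaling 13 were higher and 15 lower (median -0.00), and after quantile normalization 6 higher and 19 lower (median -0.20). Ulk2, an initiating kinase, had 14.7, 23.8, 23.3, 17.1 and 13.7 TPM in KO LPS, against 62.5, 63.4, 60.9, 64 and 58.6 TPM in KO UT (log2 difference -1.72 ± 0.12, adjusted p = 1.2e-15), and Map1lc3a (-1.66 ± 0.18), Calcoco1 (-1.49 ± 0.14) and Ulk1 (-1.15 ± 0.12) fell. Of S100 and annexin genes 6 of 15 tested members were called higher and 3 lower (median 0.23); S100a8, an alarmin of neutrophils and activated macrophages, rose by 4.36 ± 0.31, and Anxa3 fell by 0.98 ± 0.09.

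The 7 genes described whose KO response stood far above WT, and also above HET, encode secreted proteins, enzymes and surface molecules. They were chosen among genes whose KO LPS libraries all lay above all WT LPS libraries. Hp, haptoglobin, had 145, 220, 137, 141 and 80.1 TPM in KO LPS, against 2.78, 2.5, 0.923, 1.04 and 2.02 TPM in KO UT (log2 difference 5.66 ± 0.33, adjusted p = 4.38e-18); in WT LPS it lay at 3.08 to 10.8 TPM and in HET LPS at 6.55 to 23.5 TPM, all below KO LPS. The KO response exceeded that of WT by 4.36 ± 0.48 (adjusted p = 1.15e-08) and that of HET by 3.71 ± 0.46 (adjusted p = 2.23e-07). Acp5, the tartrate-resistant acid phosphatase, had 122, 330, 122, 172 and 238 TPM in KO LPS, against 0.729, 1.59, 0.345, 1.04 and 0.975 TPM in KO UT (log2 difference 6.60 ± 0.28, adjusted p = 2.96e-22), with a difference from WT of 3.49 ± 0.41 (adjusted p = 5.67e-08).

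Itgax, which encodes CD11c, had 29.7, 107, 58.3, 257 and 233 TPM in KO LPS, against 13, 18.5, 7.43, 10.8 and 21.8 TPM in KO UT (log2 difference 2.84 ± 0.41, adjusted p = 1.91e-07). LPS left Itgax at 5.25 ± 2.44 TPM in WT LPS, against 7.88 ± 3.13 TPM in WT UT (SD, n = 5 and 4), and the difference of responses was 3.37 ± 0.60 (adjusted p = 7.26e-05). KO LPS 4 and 5 were the highest and KO LPS 1 the lowest. Susd2 had 18.2, 54.1, 32.5, 90.1 and 45 TPM in KO LPS, against 0.102, 0.164, 0.09, 0.059 and 0.14 TPM in KO UT (log2 difference 5.28 ± 0.22, adjusted p = 1.97e-22) and differed from WT by 3.83 ± 0.33 (adjusted p = 3.74e-11).

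The other 3 of these genes were Lpl, Fn1 and Ly6c2. Lpl, lipoprotein lipase, had 103, 250, 151, 468 and 458 TPM in KO LPS, against 1150, 1033, 870, 677 and 1347 TPM in KO UT (log2 difference -2.02 ± 0.31, adjusted p = 6e-07), whereas its response was -5.37 in WT and -4.82 in HET. Fn1, fibronectin, had 211, 370, 222, 417 and 228 TPM in KO LPS, against 230, 250, 178, 337 and 238 TPM in KO UT, overlapping groups (difference 0.20 ± 0.31, adjusted p = 0.583), whereas its response was -3.27 in WT and -2.37 in HET. Ly6c2, a monocyte antigen with near-identical neighbours, had 24.1, 23.3, 19.5, 10.8 and 4.1 TPM in KO LPS and was listed at 0 in all KO UT libraries, and lay at 0 to 1.74 TPM in WT LPS.

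The 8 genes farthest below were Nos2, Ccl7 and members of gene families that hold interferon-inducible genes. They were chosen among genes whose KO LPS libraries all lay below all WT LPS libraries. Nos2, whose KO values are given above, lay at 238 to 1555 TPM in WT LPS and 150 to 1070 TPM in HET LPS, and the KO response was below both (difference -5.52 ± 0.59, adjusted p = 5.78e-09 against WT and -4.33 ± 0.57, adjusted p = 5.23e-07 against HET). Ccl7, a monocyte chemokine, had 65.8, 3.12, 19.8, 4.26 and 8.12 TPM in KO LPS, against 0.94, 0.378, 0.452, 0.425 and 0.169 TPM in KO UT (log2 difference 3.07 ± 0.46, adjusted p = 2.87e-07), against 480 to 1051 TPM in WT LPS (difference of responses -5.58 ± 0.67, adjusted p = 6.52e-08). KO LPS 1 and 3 were the highest of their group for both genes.

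H2-Q6, a class I gene with close copies, had 20.2, 2.38, 9.44, 5.77 and 6.01 TPM in KO LPS, against 0.63, 0.109, 0, 0.385 and 0.293 TPM in KO UT (log2 difference 2.68 ± 0.26, adjusted p = 1.58e-11), against 317 to 439 TPM in WT LPS. Ms4a4c, a membrane gene of the MS4A family, had 97.3, 5.25, 23.2, 1.47 and 2.56 TPM in KO LPS, against 2.79, 0.79, 0.973, 1.34 and 1.42 TPM in KO UT (log2 difference 2.15 ± 0.54, adjusted p = 0.000599), with overlapping groups in KO and 419 to 671 TPM in WT LPS. Oasl1, an interferon-stimulated gene that limits Irf7 translation in mouse, had 41, 1.76, 15.9, 3.62 and 1.92 TPM in KO LPS, against 0.055, 0.489, 0, 0.335 and 0.208 TPM in KO UT (log2 difference 2.67 ± 0.40, adjusted p = 2.91e-07), against 159 to 378 TPM in WT LPS. In these 3 genes KO LPS 1 was the highest and KO LPS 3 the next. Slfn1, Slfn4 and Ifit1bl1, members of interferon-inducible families with close copies, had responses below WT, with differences of -5.16 ± 0.49 (adjusted p = 3.98e-10), -5.84 ± 0.47 (adjusted p = 8.43e-12) and -6.13 ± 0.63 (adjusted p = 2.26e-09) in that order.

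**Figure D4:**
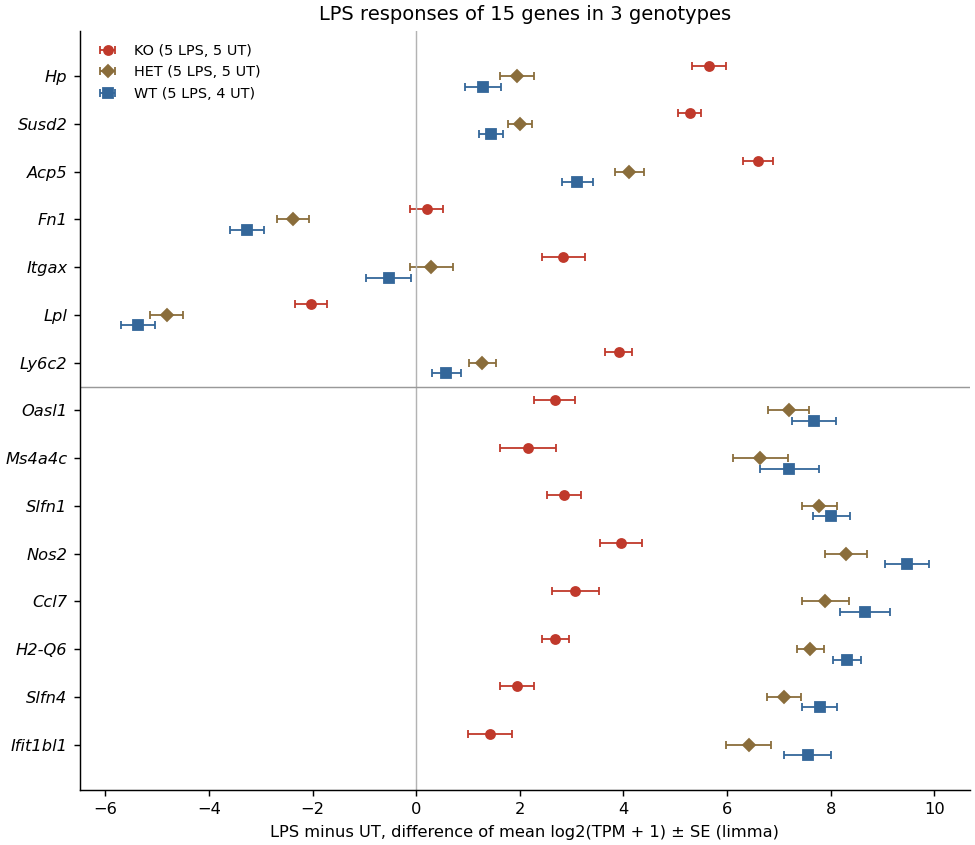
Response to LPS (LPS minus UT, log2(TPM + 1), ± SE from limma) in KO, HET and WT for 7 genes whose KO response lay far above and the 8 whose response lay farthest below that of both other genotypes. Nos2, for example, is at 3.96 in KO, 8.29 in HET and 9.47 in WT; the KO UT libraries of Ly6c2 and Slfn4 were listed at 0, so the size of their response depends on the added 1 TPM.

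Some genes responded to LPS in WT and HET and hardly in KO. Of 904 genes that moved by at least 2 in both WT and HET, 480 raised and 424 lowered, 21 were within 0.5 of no change in KO (2.32% of the 904 and 0.132% of all genes tested), of which 18 were raised and 3 lowered in the others. Rapgef5, an exchange factor for Rap proteins, had 28.4, 18.3, 25.3, 13.1 and 20.9 TPM in KO LPS, against 19.9, 22.4, 17.1, 22.3 and 24.7 TPM in KO UT (log2 difference -0.04 ± 0.16, adjusted p = 0.835); in WT it had 208 ± 25.7 TPM with LPS against 19.4 ± 3.1 TPM untreated (SD, n = 5 and 4). Its small difference in KO turned positive under median-of-ratios scaling and was then called (0.47, adjusted p = 0.0398). Cxcl9, an interferon gamma-inducible chemokine, stayed below 1 TPM in all 10 KO libraries (adjusted p = 0.0924, and 0.0217 with a replicate block), against 16.2 to 30.2 TPM in WT LPS.

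A small set of genes was called in opposite directions in KO and in both other genotypes: 106 genes (0.666% of those tested), 57 higher in KO and 49 lower, while 168 (1.06%) were opposite to WT and 122 (0.767%) to HET. These sets depend on the scaling. After median-of-ratios scaling 54 genes were higher in KO and opposite in both others, 7 of them among the 57, and 38 were lower, 1 of them among the 49. Peli1 was that 1 gene. Fam167b, called higher in KO on both scales, had 37.8, 30.9, 28.2, 20.9 and 27.5 TPM in KO LPS, against 16.6, 10, 9.06, 14.6 and 11.8 TPM in KO UT (log2 difference 1.17 ± 0.18, adjusted p = 3.84e-07), against 3.04 ± 1.02 TPM in WT LPS and 12.8 ± 2.77 TPM in WT UT (SD, n = 5 and 4). Egr2, a zinc finger factor, had 2.55, 9.89, 5.57, 25.1 and 22.1 TPM in KO LPS, against 3.98, 8.91, 2.75, 1.51 and 4.18 TPM in KO UT (log2 difference 1.20 ± 0.34, adjusted p = 0.002), but its groups overlapped and the adjusted p was 0.0911 with a replicate block.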

How the data were processed

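RNA of primary mouse microglia was sequenced after 24 h with or without LPS. The authors deposited TPM per gene for 32070 genes in 44 UT, LPS and IL4 libraries. FastQC, Trimmomatic, DRAGEN, Picard and mm10 are named in the submitters' processing notes, without versions. The sources used here do not give the strand setting, so overlapping and near-identical genes are uncertain. The depth per library is unknown.

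The 15908 genes that reached 1 TPM in 4 or more libraries were tested on log2(TPM + 1), a scale that understates changes of low genes, with limma 3.58.1 (R 4.3.3, data.table, version 1.17.8; lmFit, contrasts, eBayes with trend) as 9 group means. P-values were adjusted by Benjamini-Hochberg over all genes and called at 0.05. Tables, exact permutation tests and plots used Python 3.11.15 with numpy 2.4.6, pandas 2.3.3, scipy 1.17.1 and matplotlib 3.10.9. The comparison and the gene lists (36 functions and 9 cell types, partly taken from an earlier analysis of these data) were chosen with earlier results of these data known.

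Same-numbered KO LPS and KO UT libraries deviated together (correlations of their deviations across genes 0.130, 0.146, 0.262, 0.151 and 0.345, and each was highest with its own number), so the numbers were taken to pair the cultures, and a fit with a replicate block was run beside the fit without it. The labels call the replicates independent cultures. Unless a block is named, p-values come from the fit without it and leave the pairing out. Their spread per gene is shared by all 44 libraries in 9 groups, so it is not that of the KO cultures alone. The interferon-stimulated genes, for example, had a median SD of 0.672 in KO LPS and 0.213 in KO UT.

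Named genes were Tbk1 and Cx3cr1; the 12 highest and 12 lowest called differences whose higher group averaged 5 TPM or more, with no overlap and no predicted or pseudogene model; up to 6 called members per function list; all tested members of the TLR4 and TBK1 lists; the 8 highest and 8 lowest differences of responses from WT that were also called against HET; and up to 6 genes each that were called in opposite directions or moved little in KO. For the differences of responses, KO LPS or WT LPS had to average 5 TPM or more, with no overlap between KO LPS and WT LPS. Other names are list members outside the rule, named after their values were seen, such as Tgtp1, Lpcat2, Tyms and Rela. Some genes that met these rules are not reported here.

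Simulated data of 15908 genes made for LPS minus UT in KO, 200 of them changed, gave 88% of changes of 1 and 98% of changes of 2 on the log2 scale, and 5.1% of calls were false. The simulated noise was normal, independent and of the same spread in every group, without pairing or a shift of the median. The changed genes were not drawn from the low ones. Far more genes were called in the data, so these shares need not hold there. Alternatives were median-of-ratios scaling, quantile normalization, a pseudocount of 0.1, no filter, a filter of 5 TPM, eBayes without trend or robust, fits of only the compared groups, the block, and leaving out each library.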

Additional observations from a re-analysis of the deposited data

Results flagged for a closer look

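In 8 of 88 groups of 5 libraries examined, the highest library stood apart from the other 4 by more than Dixon's 95% critical value. Chance gives this in about 1 of 20 groups of independent, normally distributed values. The groups share libraries and so are not independent. Where the other 4 values are 0, as for Il6 and Nos2 in KO UT, any value above 0 is flagged. In KO LPS the libraries that stood apart were library 1 for Ifit1bl1 (19.6 TPM), Ccl7 (65.8 TPM) and Ms4a4c (97.3 TPM), all 3 of them higher in that library as most interferon-stimulated genes were. In KO UT they were library 5 for Acod1 (2.51 TPM), library 3 for Il6 (0.28 TPM), library 1 for Nos2 (0.033 TPM), library 4 for Slfn1 (0.071 TPM) and 1 library for the share of the 50 most abundant genes (33.3%).

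The response to LPS differed between KO and WT in 2607 genes (16.4%) and between KO and HET in 2201 genes (13.8%), by limma's test of the difference itself. Differences are KO minus WT, then KO minus HET, on the log2(TPM + 1) scale. Marco rose more in KO than in either (2.96 and 2.21), and Cx3cr1 (1.05 and 1.07), Rgs2 (0.77 and 1.16), Gas6 (0.81 and 1.08) and Gpr183 (0.75 and 0.60) fell less in KO. Tbk1 (-1.07 and -0.93), Il1a (-1.81 and -2.14), Il6 (-1.78 and -1.99) and Ccl5 (-2.04 and -1.89) responded below both, and Cadm1 (-0.74 and -0.48) fell further in KO. Cxcl2 (-1.61) and Serpinb2 (-1.20) differed from HET, and Cxcr4 (-0.89) from WT.

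The next values are differences from WT, and the genes far above and farthest below were called against HET too. Far above were Hp (4.36), Susd2 (3.83), Acp5 (3.49), Fn1 (3.46), Itgax (3.37), Lpl (3.35) and Ly6c2 (3.32). Those farthest below were Ifit1bl1 (-6.13), Slfn4 (-5.84), H2-Q6 (-5.63), Ccl7 (-5.58), Nos2 (-5.52), Slfn1 (-5.16), Ms4a4c (-5.05) and Oasl1 (-5.01). Of the genes called in opposite directions in KO and in both others, Fam167b (2.95), Egr2 (2.19), the phospholipid transporter Abcb4 (2.11) and pyruvate carboxylase Pcx (1.80) lay above WT, and Peli1 (-2.08) and Kctd12 (-1.67) below. After median-of-ratios scaling the decreases of Egr2, Abcb4 and Pcx in WT and in HET were not called, nor was the difference of Kctd12 in KO (0.11).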

How the results depend on the processing

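Scaling decided most directions near 0. Median-of-ratios scaling gave 4669 genes called higher and 4629 lower in KO, and quantile normalization 3777 and 5126; of the list members, 226 were called lower under median-of-ratios scaling, against 342 on the TPM scale. Signs turned under median-of-ratios scaling for Tbk1 (0.3518), Tirap (0.1644), Ticam1 (0.3654), Irak1 (0.1218), Irak4 (0.1628), Irf3 (0.3507), Irf5 (0.2724), Mavs (0.2452), Nfkbil1 (0.3627), Ndufa4 (0.042), Ndufa1 (0.0504), Kctd12 (0.1088), Rapgef5 (0.4682) and Ccdc173 (0.115). Under quantile normalization they turned for Tbk1 (0.2719), Tirap (0.1752), Ticam1 (0.324), Irak4 (0.0126), Irf3 (0.0717), Mavs (0.1467), Nfkbil1 (0.3608), Rapgef5 (0.3632) and Ccdc173 (0.272). Of the genes that turned, Tbk1, Ticam1, Irf3, Mavs, Nfkbil1 and Rapgef5 were called higher under median-of-ratios scaling. Ticam1 and Nfkbil1 were also called higher under quantile normalization. With a library left out, Tlr4 ranged to 0.4128, Tbkbp1 to 0.1449, Rapgef5 down to -0.1518 and Tmem119 to 0.2139. Without KO LPS 4, Tlr4 turned to -0.0568 and Rapgef5 to 0.113; without KO LPS 1, Tbkbp1 turned to -0.0528; without KO LPS 2, Tmem119 turned to -0.0035; and without KO UT 5, Tmem119 turned to -0.0522 and Rapgef5 to 0.0148. The cause was not tested. With the replicate block, 2025 genes in place of 1223 lay above HET, in both fits that held it; Egr2 and Apol9a (adjusted p = 0.0844) were lost and Cxcl9 gained, and it changed no other call of a named gene. Leaving out a library of KO LPS or KO UT gave 1958 to 2094 genes called higher and 8442 to 9194 lower, 429 to 441 and 332 to 346 list members, 1191 to 1815 genes above and 1024 to 1106 below WT, and 964 to 1445 above and 866 to 1002 below HET. The counts of opposite and of small responses under every alternative were chosen after seeing the data and gave 89 to 130 and 16 to 28 with a library left out. The other alternatives kept these counts within 1.5 times. Of the values of named genes under the alternatives, 4730 kept direction and call, 27 lost and 16 gained the call, and 29 turned.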

Other observations

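KO LPS libraries held fewer genes with at least 1 TPM than KO UT libraries, 13110 ± 346 against 14066 ± 272 (SD, n = 5 each; two-sided exact permutation p = 0.00794, the smallest that 5 against 5 can give). Mitochondrially encoded genes took 3.92% ± 1.29 of the summed TPM in KO LPS and 4.96% ± 0.752 in KO UT (p = 0.151 by the same exact test).

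Among the genes called higher in KO and lower in both WT and HET, the glyoxalase Hagh, the fructose bisphosphate regulator Pfkfb4, the semaphorin receptor Plxnd1 and the sterol-regulated Tmem97 kept these directions and calls under TPM, median-of-ratios scaling and quantile normalization. On the TPM scale their differences in KO were 0.44, 0.39, 0.43 and 0.34 in that order. The KO LPS and KO UT groups overlapped in all 4 genes. Hagh, for example, had 36.1 TPM in KO LPS 4 and 41.6 TPM in KO UT 4. The values of these 4 genes were seen before they were picked.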
